A study of Mus musculus with 6 samples.

Results

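The 10 heat shock and protein folding genes described here were *Hspa1a*, *Hspa1b*, *Hsph1*, *Dnajb1*, *Hsp90aa1*, *Hspa8*, *Hspb1*, *Cryab*, *Hspa5* and *Ddit3*, listed by name. The list was chosen with earlier results of these data known, so counts among the 10 genes do not come from a blind choice. All 10 were found by symbol among the 24346 genes measured by RNA sequencing in the mouse heart. Hearts of male C57BL/6J mice came from 3 groups with 2 libraries each. Mice of the C group ate chow, whereas those of the N group ate a diet rich in fat, cholesterol and sucrose with added bile acid (the NASH diet, for nonalcoholic steatohepatitis). In the NP group the same NASH diet carried 0.1 mg/kg pemafibrate, a selective modulator of the nuclear receptor PPARα. The sample labels give 3 weeks of feeding for every group, whereas the methods of the study describe a longer period, and the mice carried no transgene or deletion. Replicates 1 and 2 of the N and NP groups were deposited under names of different kinds, those of replicate 1 naming the tissue and those of replicate 2 naming 3 weeks, while both C libraries had names of one kind. What the names stand for is not stated, so the comparison of replicate 2 with replicate 1 is a comparison of differently named libraries with the same label. The labels do not say whether the replicates came from separate mice, and *P* values measure the spread between these libraries, which may be technical.

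Molecular chaperones bind unfolded or partly folded proteins and help them reach or keep their native structure. In the cytosol, a rise in misfolded protein releases the transcription factor HSF1, which binds heat shock elements in the promoters of the inducible Hsp70, Hsp40, Hsp110 and Hsp90 genes. In the endoplasmic reticulum, the same kind of stress is read by the unfolded protein response, which raises the resident chaperone BiP and, through the kinase PERK and the factor ATF4, the transcription factor CHOP. The heart constitutively makes large amounts of small heat shock proteins, which protect the sarcomere.

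Values are FPKM, numbers of fragments scaled by exon length and by the mapped fragments of each library, so that levels of different genes can be compared per transcript length. The depth, estimated from the steps between low FPKM values, was about 26100000 and 21400000 reads in the C libraries and between 8250000 and 8710000 reads in the N and NP libraries, so that depth and diet cannot be told apart in comparisons with the C group. Cardiomyocyte markers were abundant in every library. The FPKM of 8 of them summed to 67643 and 72126 in the C group, 49839 and 53744 in the N group, and 52624 and 62006 in the NP group. The 6 atrial markers summed to 308 and 176 in the C group and to between 3703 and 6240 in the N and NP groups, and all 6 rose in the N group over the C group (limma, smallest adjusted *P* = 0.00104). The atrial gene *Sln* was at 0 and 0.450 in the C libraries and at 250.3 or more in the others. The 7 macrophage markers summed to 335 and 302 in the C group, 612 and 526 in the N group and 251 and 223 in the NP group. The 6 hepatocyte markers summed to 410 in C replicate 2 and to between 9.45 and 31.1 in the other libraries. In bulk tissue, fewer cells of a type and less RNA per cell cannot be told apart.

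The stress-inducible Hsp70 chaperones *Hspa1a* and *Hspa1b* had the widest range of the 10 genes. These genes lie next to each other on chromosome 17 (mm10, 34969359 to 34972156 and 34956429 to 34959238, both on the minus strand). Their promoters are shown as a description, and no link between promoter elements and levels was tested. The RefSeq promoter table for GRCm38.p6, the assembly behind mm10, held 7 of the 10 genes, and the 250 bases before each start site were read. In the *Hspa1a* sequence, at chr17:34972157-34972406 and written along the minus strand, the capitals mark a heat shock element of 2 inverted units, GAANNTTC, whose first base lies 104 bases before the start site.
*Hspa1a*: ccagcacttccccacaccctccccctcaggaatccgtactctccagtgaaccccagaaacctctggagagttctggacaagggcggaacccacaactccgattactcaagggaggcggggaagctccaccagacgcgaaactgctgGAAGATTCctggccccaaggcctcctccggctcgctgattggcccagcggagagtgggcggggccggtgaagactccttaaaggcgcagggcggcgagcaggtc
The *Hspa1b* promoter, at chr17:34959239-34959488, held the same element at the same distance. It differed from the *Hspa1a* promoter at 3 of 250 bases, C44T, T47C and T249G, with the *Hspa1a* base first and positions counted from the first base printed. On both strands, GAANNTTC was found in 6.69% of 32851 promoters and its tail-to-tail form, TTCNNGAA, in 7.17%, and either occurred in 12.8%. A form of 3 units, GAANNTTCNNGAA, which overlaps both, was found in 0.466% and in none of the 7 promoters.

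*Hspa1a* measured 0.803 and 0.691 FPKM in the C libraries, 1.40 and 17.97 FPKM in N replicates 1 and 2, and 0.699 and 3.57 FPKM in NP replicates 1 and 2. *Hspa1b* measured 0.479 and 0.335 FPKM in the C group, 0.739 and 16.7 FPKM in the N group, and 0.557 and 3.87 FPKM in the NP group. In both genes, N replicate 2 was far above every other library, NP replicate 2 came next, and replicate 1 of both diet groups lay between 0.936 and 1.87 times the C mean. About 61.7% of the 75-base windows of the *Hspa1a* transcript occur in transcripts of other genes, and 52.7% occur in *Hspa1b*, so the division of reads between this pair is uncertain. The sum of both genes does not depend on that division. It was 1.28 and 1.03 FPKM in the C group, 2.14 and 34.6 FPKM in the N group, and 1.26 and 7.45 FPKM in the NP group, which put replicate 2 at 16.2 times replicate 1 in the N group and at 5.93 times replicate 1 in the NP group. These levels rest on few reads outside N replicate 2, with about 16 to 84 reads of *Hspa1a* per library in the other 5 libraries and about 433 in that one.

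**Figure D1:**
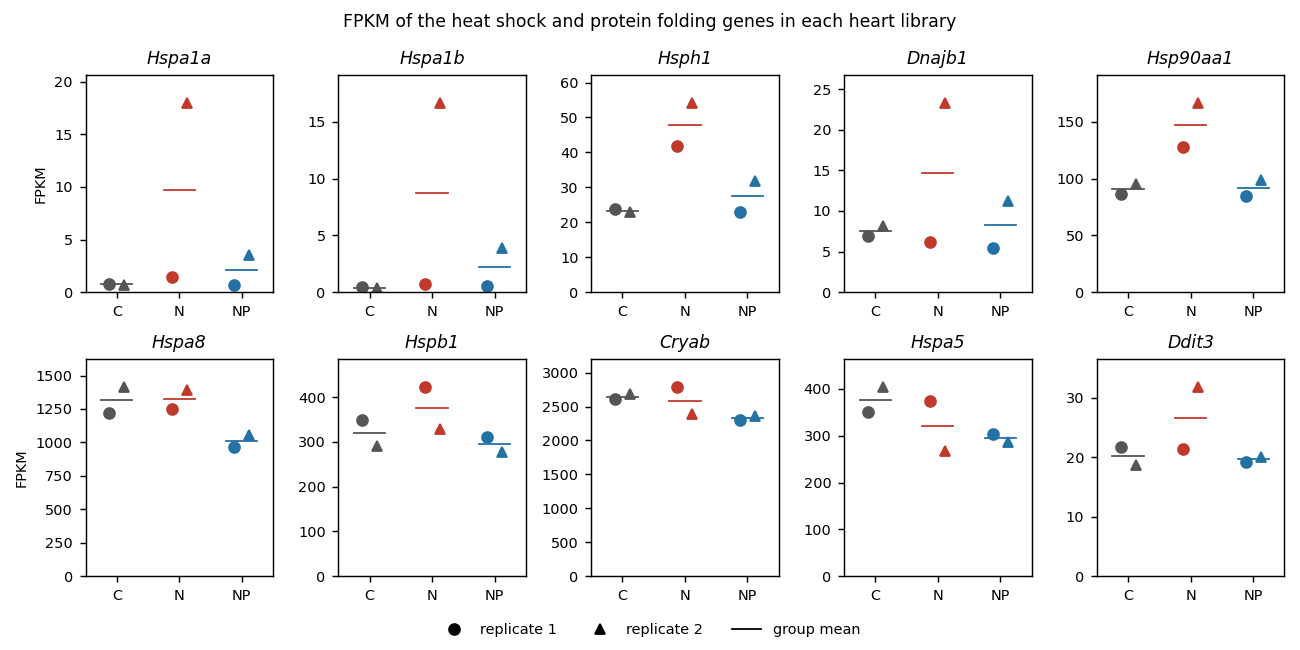
FPKM of the 10 genes in each library, with 1 panel per gene, the groups C, N and NP on the horizontal axis, circles for replicate 1, triangles for replicate 2 and lines for group means. N replicate 2 was the highest library for 6 of the 10 genes, as it was for 17.5% of all genes, and the triangles of *Hspa1a*, *Hspa1b* and *Dnajb1* stood above the circles in the N and NP groups.

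*Hsph1* (chromosome 5, 149616843 to 149636498) encodes an Hsp110 chaperone that exchanges the nucleotide of Hsp70 and helps it to dissolve aggregates. Its element is likewise shown as a description. In these 30 bases of its promoter, at chr5:149636351-149636380 and along the minus strand, the capitals mark the tail-to-tail pair of units, TTCNNGAA, which starts 33 or 54 bases before the start site, depending on which of its annotated starts is used.
*Hsph1*: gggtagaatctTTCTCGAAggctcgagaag
*Hsph1* measured 23.7 and 23.0 FPKM in the C group, 41.7 and 54.2 FPKM in the N group, and 23.0 and 31.9 FPKM in the NP group. Both N libraries were above the other 4, NP replicate 1 was level with the C libraries, and replicate 2 was above replicate 1 in both diet groups. *Dnajb1* (chromosome 8, 83608175 to 83612653) encodes an Hsp40 cochaperone that hands substrates to Hsp70 and stimulates its ATPase. It measured 6.97 and 8.09 FPKM in the C group, 6.16 and 23.3 FPKM in the N group, and 5.46 and 11.2 FPKM in the NP group. As with *Hspa1a*, the replicate 2 libraries of N and NP were the highest, and both replicate 1 libraries lay below the C group. The *Dnajb1* promoter held none of the heat shock elements searched for in the 250 bases read.

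*Hsp90aa1*, the inducible cytosolic Hsp90 that matures kinases and steroid receptors (chromosome 12, 110691036 to 110696395), measured 86.3 and 95.1 FPKM in the C group, 128 and 167 FPKM in the N group, and 84.5 and 98.9 FPKM in the NP group. As for *Hsph1*, both N libraries were above the other 4 and the C and NP groups overlapped. *Hspa8*, the constitutive Hsp70 of the cytosol (chromosome 9, 40801276 to 40805202), was far more abundant than its inducible relatives. It measured 1219 and 1414 FPKM in the C group, 1253 and 1393 FPKM in the N group, and 968 and 1056 FPKM in the NP group, with both NP libraries below the other 4. Pseudogenes and other copies share 53.1% of the 75-base windows of *Hsp90aa1* and 41.3% of those of *Hspa8*, so part of their reads may have been divided among copies.

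The small heat shock proteins *Hspb1*, known as Hsp27, and *Cryab*, the αB-crystallin that chaperones desmin and titin, were abundant in every library. They lie on chromosome 5 (135887919 to 135889563) and chromosome 9 (50745951 to 50756636). *Hspb1* measured 350.1 and 292 FPKM in the C group, 423 and 330 FPKM in the N group, and 312 and 278 FPKM in the NP group. *Cryab* measured 2612 and 2681 FPKM in the C group, 2788 and 2389 FPKM in the N group, and 2301 and 2367 FPKM in the NP group. Neither had the high values of replicate 2 that *Hspa1a* had, and the highest *Cryab* level was 1.21 times the lowest. The *Hspb1* promoter, at chr5:135887669-135887918 on the plus strand, held 2 heat shock elements of the form GAANNTTC, in capitals, 117 and 97 bases before the start site. Whether these elements bear on the levels was not tested.
*Hspb1*: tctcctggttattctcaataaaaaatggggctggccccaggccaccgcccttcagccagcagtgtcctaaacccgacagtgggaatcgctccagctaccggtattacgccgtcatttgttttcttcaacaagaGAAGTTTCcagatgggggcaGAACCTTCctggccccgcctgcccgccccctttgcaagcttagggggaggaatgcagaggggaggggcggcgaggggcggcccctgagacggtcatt
About 47.3% of the 75-base windows of *Hspb1* also occur in other genes, mainly in a pseudogene.

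The 2 genes of endoplasmic reticulum stress had different patterns. *Hspa5*, which encodes BiP (chromosome 2, 34772090 to 34776529), measured 349.8 and 404 FPKM in the C group, 375 and 268 FPKM in the N group, and 304 and 288 FPKM in the NP group, and N replicate 2 was its lowest library. *Ddit3*, which encodes the transcription factor CHOP (chromosome 10, 127290793 to 127296291), measured 21.7 and 18.6 FPKM in the C group, 21.4 and 31.8 FPKM in the N group, and 19.3 and 20.0 FPKM in the NP group, and N replicate 2 was its highest library. The *Hspa5* promoter is shown because its element differs from those above. At chr2:34771840-34772089 on the plus strand, the capitals mark an endoplasmic reticulum stress response element, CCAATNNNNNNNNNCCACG, which starts 65 bases before the start site.
*Hspa5*: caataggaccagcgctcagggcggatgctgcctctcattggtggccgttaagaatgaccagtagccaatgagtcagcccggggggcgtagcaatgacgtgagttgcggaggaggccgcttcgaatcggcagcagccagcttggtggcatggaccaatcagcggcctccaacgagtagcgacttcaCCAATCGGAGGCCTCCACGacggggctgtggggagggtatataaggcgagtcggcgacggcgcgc
This element was found in 0.113% of the promoters and in no other of the 7, and its first bases are also a CCAAT box, which 33.8% of the promoters held. The *Hspa5* promoter also contained TGACGTG, the core of the unfolded protein response element, found in 1.65%. In the 250 bases read, the *Ddit3* promoter held neither of these, nor the element TGATGNAA bound by C/EBP and ATF factors (3.45% of promoters). Bases farther upstream were not searched, so an element there would have been missed. The TATA box, searched for only as the exact letters TATAAA, was found in 12.4% of the promoters and in none of the 7. Other forms were not searched for, such as the tatataagg in the *Hspa5* sequence above.

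The comparison of the N with the C group asks how the heart responded to the NASH diet. *Hsph1* was 47.9 ± 8.81 FPKM in the N group against 23.3 ± 0.530 FPKM in the C group (SD, n = 2 each), and *Hsp90aa1* was 147 ± 27.5 against 90.7 ± 6.24 FPKM. These differences, 1.0 (SE 0.20) and 0.68 (SE 0.16) on the log2(FPKM + 1) scale, did not pass the threshold of 0.05 (limma, adjusted *P* = 0.0913 and 0.139). *Hspa1a* and *Hspa1b* differed by 1.95 (SE 0.97) and 1.98 (SE 1.09), with standard errors that reflect the gap between the N replicates (limma, adjusted *P* = 0.422 and 0.466). They were 0.46 and 0.31 without N replicate 2 and 3.44 and 3.65 without N replicate 1. *Dnajb1* differed by 0.63 (SE 0.59) and reversed to -0.25 without N replicate 2. *Ddit3* (0.36), *Hspb1* (0.22), *Hspa8* (0.01), *Cryab* (-0.04) and *Hspa5* (-0.25) differed by less. The log2(FPKM + 1) scale understates the change of genes with low levels, such as *Hspa1b*.

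None of the 10 genes was called between N and C, where 1.55% of 12923 genes tested were called. At an unadjusted *P* under 0.05 in limma, *Hsph1* and *Hsp90aa1* were counted, against 15.0% of all genes. The N libraries lay above the C libraries without overlap for 4 of the 10 genes, *Hspa1a*, *Hspa1b*, *Hsph1* and *Hsp90aa1*, against 22.5% of all genes, and below them for 0, against 27.0%. The division of reads between *Hspa1a* and *Hspa1b* is uncertain, so they are not independent entries in this count. The median difference of the 10 genes was 0.50, and that of all genes was -0.03, but without N replicate 2 the former was 0.20 and without N replicate 1 it was 0.75. When the FPKM were scaled to the same total in each library, which moved the median of all genes to 0.12, *Hsph1* and *Hsp90aa1* passed (limma, adjusted *P* = 0.0309 and 0.0415), with differences of 1.05 and 0.74 over that median in place of 1.03 and 0.71. They also passed with the term for replicate 2 of N and NP that serves the replicate comparison. There the difference is from the C group to the fitted level of replicate 1 in the N group. It was 0.79 for *Hsph1* and 0.53 for *Hsp90aa1* (limma, adjusted *P* = 0.0103 and 0.0350). Both settings called more of the 12923 genes than the main model, 309 with that scaling and 1070 with that term in place of 200. Atrial, macrophage, adipocyte, T and natural killer cell and B cell markers were also higher in the N than in the C libraries. Adipocyte markers summed to 190 and 104 FPKM against 2.09 and 9.38, T and natural killer cell markers to 7.15 and 7.93 against 0.599 and 0.657, and B cell markers to 5.12 and 5.02 against 0.967 and 0.737. Of 8 cardiomyocyte markers, 0 had a difference above 0 between N and C, with a median of -0.30, and none was called. The part of all these markers and of the smaller depth of the N libraries was not tested.

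**Figure D2:**
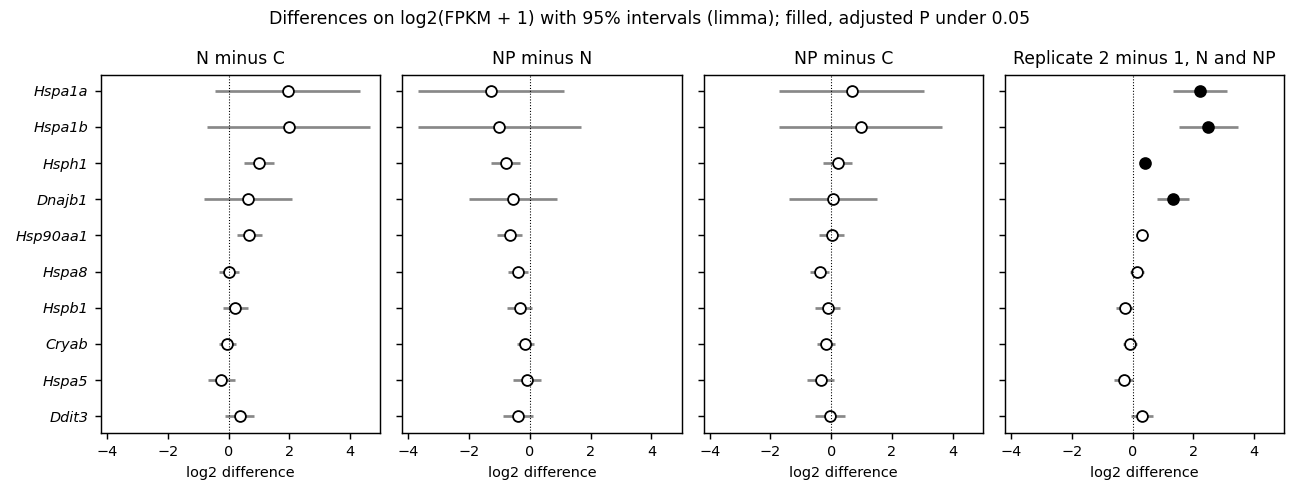
Differences of the 10 genes on the log2(FPKM + 1) scale in 4 comparisons, with 95% confidence intervals from limma as bars and filled points for adjusted *P* under 0.05. The filled points are *Hspa1a*, *Hspa1b*, *Hsph1* and *Dnajb1* between replicates 2 and 1, and no point is filled between groups.

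The comparison of the NP with the N group asks what pemafibrate changed on the NASH diet. Each of the 10 genes had a lower mean log2 level in the NP group, against 44.0% of all genes below 0, and none passed the threshold in the model of group means. *Hsph1* was 27.5 ± 6.26 FPKM and *Hsp90aa1* 91.7 ± 10.2 FPKM in the NP group (SD, n = 2), and they differed from the N group by -0.79 (SE 0.20) and -0.67 (SE 0.16) on the log2 scale (limma, adjusted *P* = 0.225 and 0.220). Within libraries named alike, *Hsph1* differed by -0.83 between the replicate 1 libraries and by -0.75 between the replicate 2 libraries. The corresponding values of *Hsp90aa1* were -0.59 and -0.75, so that for both genes the difference was of similar size within either kind of name. With the term for replicate 2 of N and NP in the model, these differences were unchanged and both passed (limma, adjusted *P* = 0.00733 for *Hsph1* and 0.0218 for *Hsp90aa1*). That model called 301 of the 12923 genes, in place of 179 in the main model. With the replicate number as a block over all 6 libraries, only *Hsp90aa1* passed (limma, adjusted *P* = 0.0416, against 0.0875 for *Hsph1*). With the N and NP libraries alone, neither passed (limma, adjusted *P* = 0.502 for *Hsph1* and 0.481 for *Hsp90aa1*).

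For the inducible Hsp70 genes, the size of the difference varied with the kind of name. *Hspa1a* differed by -1.27 (SE 0.97) between NP and N (limma, adjusted *P* = 0.914), which was -0.50 between the replicate 1 libraries and -2.05 between the replicate 2 libraries. For *Hspa1b* the difference was -1.01 (SE 1.09), composed of -0.16 and -1.86, and for *Dnajb1* it was -0.57 (SE 0.59), composed of -0.15 and -1.0. Without N replicate 2, both NP libraries were compared with N replicate 1 alone, so the replicate difference entered the estimate. These 3 genes then reversed to 0.22, 0.66 and 0.31, and 7 of the 10 genes stayed below 0. Between the replicate 1 libraries, the same 3 genes were lower in the NP group (-0.50, -0.16 and -0.15). Without N replicate 1, where N replicate 2 alone stood for the N group, *Hspa5* reversed to 0.14.

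*Hspa8* differed by -0.39 (SE 0.13) between NP and N (limma, adjusted *P* = 0.464), with -0.37 and -0.40 within replicates 1 and 2. *Ddit3* (-0.39), *Hspb1* (-0.34), *Cryab* (-0.15) and *Hspa5* (-0.10) followed. Of all genes, 1.39% were called between NP and N, all of them lower. At an unadjusted *P* under 0.05 in limma, *Hsph1*, *Hsp90aa1* and *Hspa8* were counted, against 8.04% of all genes. The NP libraries lay below the N libraries without overlap for 6 of the 10 genes, *Hsph1*, *Hsp90aa1*, *Hspa8*, *Hspb1*, *Cryab* and *Ddit3*, against 14.7% of all genes. The median difference was -0.48, and that of all genes was 0.03, and the former was -0.28 without N replicate 2 and -0.76 without N replicate 1. Markers of other cells were lower in the NP group as well, with 5 of 7 macrophage markers called and 1 of 2 tested T and natural killer cell markers called. The T and natural killer cell markers summed to 0.531 and 0.415 FPKM in the NP group, the B cell markers to 1.28 in both libraries, and the adipocyte markers to 16.0 and 87.4, and the part of these cells in the result was not tested. The depth of the N and NP libraries was alike.

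Between the NP and the C group, the 10 genes had a median difference of -0.01, equal to that of all genes. None was called, against 0.0387% of all genes, and *Hspa8* alone had an unadjusted *P* under 0.05 (limma, 8.05% of all genes), with 1012 ± 62.6 FPKM in the NP and 1317 ± 138 FPKM in the C group (SD, n = 2 each). The difference of *Hspa8* was -0.38 (SE 0.13; limma, adjusted *P* = 0.559). The NP libraries lay above the C libraries for *Hspa1b* (19.5% of all genes) and below them for *Hspa8*, *Cryab* and *Hspa5* (23.0% of all genes). Differences were 0.01 for *Hsp90aa1*, with a 95% interval from -0.39 to 0.42, and 0.21 for *Hsph1*, from -0.27 to 0.69, and these intervals hold changes in either direction. The N minus C, NP minus N and NP minus C differences share libraries and are not independent of one another.

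For *Hspa1a*, *Hspa1b* and *Dnajb1*, the differences between replicates 2 and 1 of the N and NP groups were larger than those between the groups. With group and replicate in 1 model, *Hspa1b* rose by 2.49 (SE 0.39), *Hspa1a* by 2.21 (SE 0.35), *Dnajb1* by 1.34 (SE 0.21) and *Hsph1* by 0.41 (SE 0.07) on the log2(FPKM + 1) scale (limma, adjusted *P* = 0.0302, 0.0318, 0.0302 and 0.0349). Thus 4 of the 10 genes were called, all higher in replicate 2, where 9.00% of all genes were called, 4.36% higher and 4.64% lower. *Hsp90aa1* (0.30, SE 0.08; limma, adjusted *P* = 0.0761), *Ddit3* (0.30), *Hspa8* (0.14), *Cryab* (-0.09), *Hspb1* (-0.26) and *Hspa5* (-0.28) did not pass. Replicate 2 was above replicate 1 in both groups for 7 of the 10 genes, against 33.6% of all genes. *Hspa1a* and *Hspa1b* exceeded 1 on the log2 scale in both groups, as 0.325% of all genes did. As 52.7% of the 75-base windows of *Hspa1a* occur in *Hspa1b*, these genes are not independent entries in the counts.

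The difference between the C libraries, which share names of one kind, was -0.09 for *Hspa1a*, -0.15 for *Hspa1b*, 0.19 for *Dnajb1* and -0.04 for *Hsph1*. Replicate 2 exceeded replicate 1 by 2.98 in the N group and by 1.43 in the NP group for *Hspa1a*, by 3.34 and 1.65 for *Hspa1b*, and by 1.76 and 0.92 for *Dnajb1*. The value in the NP group was the smaller one for these 3 genes, whereas *Hsph1* had 0.37 in the N and 0.45 in the NP group. The test of this difference gave -1.56 (SE 0.20) for *Hspa1a* and -1.70 (SE 0.22) for *Hspa1b*, which did not pass after adjustment over all genes (limma, adjusted *P* = 0.367 and 0.386). None of the 10 genes was called in that test, against 0.186% of all genes, and its spread comes from the C libraries alone.

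The replicate effect in limma has 2 residual degrees of freedom, and all 4 calls were lost without either C library (adjusted *P* from 0.104 to 0.107), without either N library (adjusted *P* from 0.101 to 0.161), with no filter on low values (adjusted *P* from 0.0798 to 0.0875), or with variance moderation that ignores the mean level (adjusted *P* from 0.0549 to 0.0683). Without either NP library the estimate is that of N replicate 2 against N replicate 1 alone, 1 library on each side, with its spread taken from the C libraries, and *Hspa1a* (2.98) and *Hspa1b* (3.34) were called there. Depth was about 8700000 and 8710000 reads in the N and 8250000 and 8480000 reads in the NP libraries, and the atrial markers of replicate 2 summed to 1.41 and 1.65 times those of replicate 1, a difference whose part was not tested. Endothelial markers of replicate 2 summed to 0.819 and 0.791 times those of replicate 1, with 2 of 6 called lower, and adipocyte markers to 0.549 times in the N and 5.46 times in the NP group, so that the latter went in opposite directions.

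**Figure D3:**
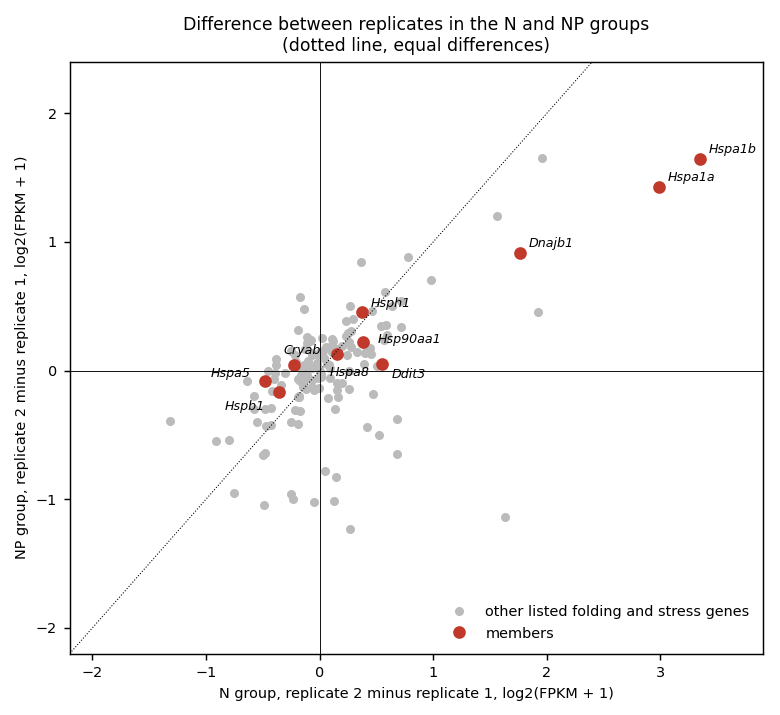
Difference between replicate 2 and replicate 1 on the log2(FPKM + 1) scale in the N group (horizontal axis) and the NP group (vertical axis), with the 10 genes in red, other listed folding and stress genes in grey and a dotted line of equal differences. *Hspa1a*, *Hspa1b* and *Dnajb1* lie far to the right and below the line, and *Hsph1* lies close to it.

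The rest of the folding and stress machinery was read from 11 lists with 137 genes tested. In the N against C and the NP against C comparison, 0 of the 137 were called in limma. Between NP and N, 1 was called, *Socs3*, an inhibitor of cytokine signalling listed among the immediate early genes, which fell by 0.76 on the log2 scale (SE 0.11; limma, adjusted *P* = 0.0473). That call was lost in limma without any 1 of the 6 libraries. With all libraries kept, it was also lost with no filter, a filter at a mean FPKM of 1, scaling to the same total or quantile normalization. The same held with a replicate block over all 6 libraries, and with the N and NP libraries alone. Between replicates 2 and 1 of the N and NP groups, 9 of the 137 rose and 9 fell, where 4.36% of all genes rose and 4.64% fell. In limma, none of the 137 was called without either C library, without either N library, with the N and NP libraries alone or with no filter on low values, 2 were called (*Dnaja1* and *Nr4a1*) with moderation that ignores the mean level, and without NP replicate 1 or 2 those called were *Atf3* and *Nr4a1*, or *Atf3* alone.

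Among cytosolic Hsp70, Hsp110 and Hsp40 chaperones, 1 of 16 was called between replicates. This was *Dnaja1*, the farnesylated Hsp40, at 15.9 and 18.4 FPKM in the C group, 15.9 and 48.7 FPKM in the N group, and 12.7 and 30.5 FPKM in the NP group. It rose by 1.38 (SE 0.12; limma, adjusted *P* = 0.0186), in the pattern of *Dnajb1*, with replicate 1 near the C level. *Hspa2*, at 0.53, did not pass, and the median of the list was 0.06.

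Of 20 cochaperones of Hsp90 and Hsp70, 2 rose and 1 fell. *Cacybp*, which links Hsp90 to ubiquitination, rose by 0.63 (limma, adjusted *P* = 0.0274) and *Ptges3*, the Hsp90 cochaperone p23, by 0.59 (limma, adjusted *P* = 0.0246). *Unc45b*, the myosin chaperone of striated muscle, fell by 0.44 (limma, adjusted *P* = 0.0469). Of 4 genes listed with the heat shock factors, *Hsbp1*, at 0.31, did not pass, and *Hsf1* fell by 0.45 (SE 0.08, limma, adjusted *P* = 0.0407). *Hsf1* measured 22.2 and 15.7 FPKM in the N and 21.8 and 15.9 FPKM in the NP group. The transcript of this factor, the activator of the heat shock genes, was lower in the libraries in which 4 of the 10 genes were higher, and its activity was not measured.

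None of the 6 other genes listed with the small heat shock proteins was called, with *Hspb3* at 0.60 and *Hspb11* at 0.38. The same held for 8 subunits of the chaperonin TRiC, with *Cct6a* at 0.24 and *Cct4* at 0.17. Of 10 mitochondrial chaperones and proteases, *Hspe1*, the partner of Hsp60, rose by 0.46 (limma, adjusted *P* = 0.0323), while *Clpx*, at -0.30, did not pass. Both cold-inducible RNA-binding protein genes rose. *Rbm3* measured 37.4 and 64.7 FPKM in the N and 32.1 and 60.1 FPKM in the NP group against 43.8 and 47.3 FPKM in the C group, and rose by 0.83 (SE 0.08; limma, adjusted *P* = 0.0196). *Cirbp* rose by 0.57 (SE 0.09; limma, adjusted *P* = 0.0302). Both lay below the C group in replicate 1 and above it in replicate 2 of either diet group.

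Of 19 chaperones and folding enzymes of the endoplasmic reticulum, 2 fell, where 4.64% of all genes fell, *Hyou1*, an Hsp110-like exchange factor of BiP, by 0.73 (SE 0.11; limma, adjusted *P* = 0.0288) and *Creld2* by 0.67 (SE 0.09; limma, adjusted *P* = 0.0274). *Hyou1* measured 18.4 and 18.6 FPKM in the C group, 26.0 and 13.4 FPKM in the N group, and 18.9 and 12.6 FPKM in the NP group, and its highest and lowest values both came from libraries on the NASH diet. Of 14 stress sensors and degradation genes, 3 fell, namely *Ern1*, which encodes the sensor IRE1α, by 0.85, *Atf6*, another sensor, by 0.56, and *Syvn1*, a ubiquitin ligase of degradation, by 0.47 (limma, adjusted *P* = 0.0325, 0.0274 and 0.0443). *Herpud1*, at -0.62, did not pass. *Hspa5* itself, at -0.28, did not pass (limma, adjusted *P* = 0.185).

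Of 21 genes of the integrated stress response, 1 rose and 2 fell. *Cebpb*, a transcription factor, rose by 0.84, and *Ddit4*, an inhibitor of mTORC1, and *Bbc3*, a mediator of apoptosis, fell by 0.77 and 0.58 (limma, adjusted *P* = 0.0235, 0.0371 and 0.0435). *Atf3*, at 1.19, and *Chac1*, at -0.86, had larger differences and did not pass (limma, adjusted *P* = 0.0788 and 0.0716). *Atf3* measured 3.78 and 17.1 FPKM in the N and 5.40 and 7.75 FPKM in the NP group, so that N replicate 2 was high, as for *Ddit3*. Of 17 immediate early genes, *Nr4a1*, an orphan nuclear receptor, rose by 1.80 (SE 0.11; limma, adjusted *P* = 0.00659) and *Ier3* by 0.44 (limma, adjusted *P* = 0.0460), while *Zfp36*, at -0.61, did not pass. *Nr4a1* was 7.43 and 31.7 FPKM in the N group and 12.2 and 40.5 FPKM in the NP group, and here NP replicate 2 and not N replicate 2 was the highest library.

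**Figure D4:**
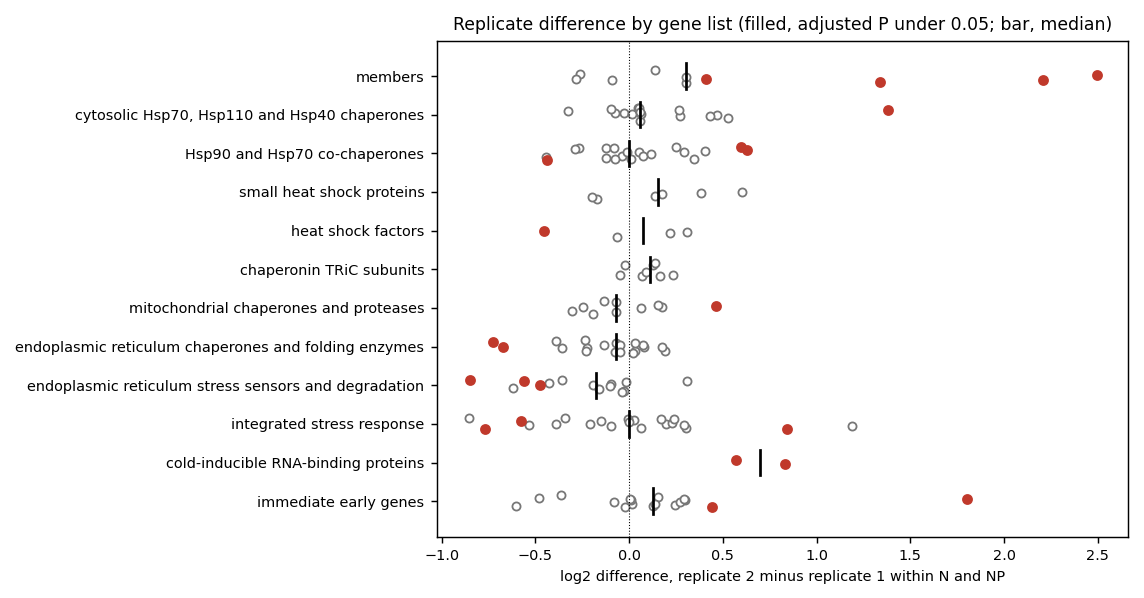
Difference between replicate 2 and replicate 1 of the N and NP groups on the log2(FPKM + 1) scale for each gene (points, filled at adjusted *P* under 0.05) in the 10 genes and in 11 lists of folding and stress genes, with bars for medians. *Hspa1b*, *Hspa1a*, *Nr4a1*, *Dnaja1* and *Dnajb1* are the filled points farthest to the right, and filled points lie on both sides of 0.

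The genes whose pattern over the 6 libraries was most like that of 4 of the 10 were taken from 5651 genes by Pearson's r of log2(FPKM + 1), as a description of 6 points that share groups and replicate names. *Hspa1a* was most like *BC017643* (r = 0.996), *Hspa1b* (0.993) and *A630089N07Rik* (0.990), of which the last reached 35.7 FPKM in N replicate 2 and between 2.33 and 5.60 FPKM elsewhere. The likeness to *Hspa1b* is not independent of the uncertain division of reads between the pair. *Hsph1* was most like *AB124611* (0.999), *Pfkfb3* (0.999), an activator of glycolysis at 8.43 and 13.4 FPKM in the N group against 2.54 and 2.70 FPKM in the C group, and *Eif2ak2* (0.995), the interferon-inducible kinase PKR. *Hspa5* was most like *Mir686* (0.997), *Chrna2* (0.989) and *Ehhadh* (0.987), a peroxisomal enzyme of fatty acid oxidation. *Ddit3* was most like *Arhgap15* (0.994), *Spc25* (0.975) and *Tmsb10* (0.967), each highest in N replicate 2.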

How the data were processed

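Heart RNA of the C, N and NP groups was analysed as 6 libraries grouped by the diet in the sample labels. Per the methods and the processing notes, 75-base single-end reads were mapped to mm10 with TopHat2 2.0.13, Bowtie2 2.2.3 and SAMtools 0.1.19, and the authors computed the deposited FPKM with Cufflinks 2.2.1. The annotation, the handling of reads with several matches and the strand setting are not given in the sources used here. The extraction protocol in the labels names liver, whereas the tissue label is heart.

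The tests were run in R 4.3.3 (limma 3.58.1), and tables, depth estimates and figures were made in Python 3.11.15 (pandas 2.3.3, numpy 2.4.6, matplotlib 3.10.9). The FPKM were taken as log2(FPKM + 1), and the 12923 genes whose mean FPKM reached 0.5 were tested. A model with 3 group means (3 residual degrees of freedom) was fitted with limma and trended moderation. For the replicate comparison, a term for replicate 2 of N and NP was added (2 residual degrees of freedom). For its difference between NP and N, each of their libraries had its own level (1 residual degree of freedom). Adjustment was by Benjamini and Hochberg over all genes. With 2 libraries per group, the smallest two-sided *P* of an exact permutation test is 0.333, so none was used. The tests were tested on simulated data.

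Depth was estimated from 3912 genes with 1 transcript in GENCODE M21. Between 74.9% and 79.0% of the values of up to 5 reads lay within 0.1 of a whole read, so counts were not recovered and the reads given are approximate. Shared windows were sought among all GENCODE M21 transcripts. Promoters and gene positions are from RefSeq (GRCm38.p6), and motifs were searched on both strands as exact letters, without near matches.

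The 10 genes, the pathway lists and the marker lists were chosen with earlier results of these data known. Genes named are the 10, the called members of each pathway list (at most 3 per list and comparison), per list the 2 with the largest replicate difference, both cold-inducible genes, and the 3 most like each of *Hspa1a*, *Hsph1*, *Hspa5* and *Ddit3* among genes whose range was at least 0.5 on the log2 scale. Other pseudocounts, filters, scalings, moderation and replicate blocks were also tried, as was the omission of each library.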

Additional observations from a re-analysis of the deposited data

How the results depend on the processing

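The results rest on 2 libraries per group, on FPKM without counts, and on about 12 to 85 reads of *Hspa1a* or *Hspa1b* in most libraries, which limits the precision of their low levels. The labels do not say that the replicate number pairs samples across groups. Same-numbered libraries deviated alike between N and NP more than either did with C. Across genes, the deviations of same-numbered libraries correlated with Pearson r = 0.0471 between C and N, 0.124 between C and NP and 0.458 between N and NP, and the labels give no shared litter, batch or day. With the replicate number as a block over all 6 libraries, 328 genes were called between N and C in place of 200, and 20 between NP and C in place of 5. *Hsph1* (1.0, limma, adjusted *P* = 0.0341) and *Hsp90aa1* (0.68, adjusted *P* = 0.0331) were then the 2 members called between N and C, and *Hsp90aa1* (-0.67, adjusted *P* = 0.0416) the 1 called between NP and N. With the block applied to N and NP libraries only, 1070, 301 and 103 genes were called between N and C, NP and N, and NP and C. *Hsph1* (0.79, adjusted *P* = 0.0103) and *Hsp90aa1* (0.53, adjusted *P* = 0.0350) passed between N and C, and the same 2 (-0.79, adjusted *P* = 0.00733 and -0.67, adjusted *P* = 0.0218) between NP and N. Under that block, *Dnajb1* (-0.04), *Hspa8* (-0.06) and *Cryab* (0.01) reversed between N and C, and *Hspa1a* (-0.43), *Hspa1b* (-0.28), *Dnajb1* (-0.61), *Hsp90aa1* (-0.14) and *Hspb1* (0.01) between NP and C. The replicate difference averaged over C, N and NP gave 0 calls in limma, with 2413 genes at an unadjusted *P* under 0.05, and 1.44 for *Hspa1a* (adjusted *P* = 0.255).

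With FPKM scaled to the same total, 309 genes and 2 members were called between N and C and 10 genes between NP and C. *Cryab* reversed to 0.14 between N and C, *Hspb1* and *Ddit3* reversed to 0.04 and 0.12 between NP and C, and *Hsph1* lost its call between replicates (0.32, adjusted *P* = 0.0575), where the split moved from 563 higher and 600 lower genes to 381 and 982. With quantile normalization, *Cryab* reversed to 0.09 between N and C, and *Hspb1* and *Ddit3* to 0.05 and 0.02 between NP and C. With a pseudocount of 0.1, 12 genes were called between NP and C and 5 in place of 24 for the difference of the replicate effect. Without a filter on low values, these became 0 and 0, with 1353 and 1989 genes at an unadjusted *P* under 0.05 in limma, and 14 genes and 0 members were called between replicates in place of 1163 and 4. Without the mean trend in moderation, 66 genes and 0 members were called between replicates. With the compared libraries alone, 78 genes were called between NP and N in place of 179, and 8 genes and 0 members between replicates.

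With each library left out in turn, the number of genes called was 49 to 183 between N and C, 67 to 108 between NP and N, 5 to 101 between NP and C and 8 to 41 between replicates, and 0 to 2 members were called between replicates. *Hspa8* reversed to -0.10 between N and C without C replicate 1 and to -0.07 without N replicate 2, as did *Dnajb1* (-0.25) and *Cryab* (0.08), while omissions that left *Cryab* below 0 reached -0.15. Between NP and C, *Dnajb1*, *Hsp90aa1*, *Hspb1* and *Ddit3* reversed to -0.03, -0.06, 0.01 and 0.07 without C replicate 1, and *Hspa1a*, *Hsph1*, *Dnajb1* and *Hsp90aa1* to -0.04, -0.02, -0.40 and -0.10 without NP replicate 2, against 1.39, 0.43, 0.52 and 0.13 without NP replicate 1. Between NP and N, *Hspa1a*, *Hspa1b* and *Dnajb1* reversed to 0.22, 0.66 and 0.31 without N replicate 2, against -2.77, -2.68 and -1.45 without N replicate 1, and *Hspa5* to 0.14 without N replicate 1, against -0.34 without N replicate 2. Between replicates, *Cryab* reversed to 0.04 without either N library, against -0.22 without either NP library. Without 1 of the N or NP libraries, the 2 kinds of name were no longer equally present in NP and N. The replicate difference then entered the NP minus N estimate. Other causes of these changes were not tested. Median-of-ratios scaling and a filter at a mean FPKM of 1 moved no count of calls by over 1.5 times and changed no call of the 10 genes.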
